A study of Mus musculus with 7 samples.

Results

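The 47 genes described here encode the DNA damage response and repair proteins of the mouse, and they were read in muscle stem cells of young and geriatric animals. A gene was a member if its name was on a list of repair genes and equalled the gene name of a probe that was not a control spot. The list was chosen with earlier results of these data known. By this rule all 47 were on the array, among 36406 gene or transcript names in all. They were ordered by route: 10 genes of damage signalling, 12 of homologous recombination, 4 of the Fanconi anaemia pathway with its deubiquitinase, 5 of end joining, 8 of base excision and single-strand break repair, 6 of nucleotide excision and 2 of mismatch repair.

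DNA damage is met by sensor kinases that halt the cell cycle and mark the chromatin around a break, and by separate enzyme routes that each remove one kind of lesion. Homologous recombination copies an intact sister chromatid and so belongs to replicating cells, whereas end joining, base excision and nucleotide excision also work in cells that do not divide. Muscle stem cells, called satellite cells, lie quiescent beside the muscle fibre for most of an animal's life, and therefore lack a sister chromatid for most of that time.

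The cells came from skeletal muscle of male C57BL/6 mice, with no transgene, injury or treatment named in the labels. Young mice, 1 age per array, were 2, 2 and 3 months old. Geriatric mice were 28, 28, 29 and 30 months old over 4 arrays. Cells positive for integrin α7 and CD34 were sorted by flow cytometry, and those carrying CD31, CD45, CD11b or Sca1 were gated out. RNA was amplified from few cells before Cy3 labelling, and no label says whether a sample was 1 mouse or a pool. A p-value below therefore measures the spread between these samples, which may be technical.

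Each array held 55681 probes, of which 38042 to 41282 were well above background, and none was saturated. A level below is the log2 signal of a probe minus the 75th percentile of its array, which lay between 1330 and 1609 intensity units. Geriatric replicates 1 and 2 were titled as separate biological replicates, but their descriptions carried 1 sample name. They differed by no more than 2 combined measurement errors at 95.6% of features, against 51.4% to 60.3% for the other array pairs. They were therefore averaged as 1 sample, which left 3 young against 3 geriatric samples. All 10 satellite cell markers, among them Pax7 and Myf5, were well above background on every array. In geriatric cells 6 were higher and 4 lower, with a median log2 difference of 0.06. Itga7, the gene of the integrin used in the sort, was lower without overlap, at -0.44 (SE 0.19, limma adjusted p = 0.703). It was the 1 such marker of the 10 (10%), against 5.65% of all features. Cd34, the gene of the other antigen selected for, gave 0.09. Of the cell types gated out, the summed linear level of 8 macrophage markers was 92.1 to 102 in young and 96.8 to 115 in geriatric samples, with Lyz2 not above background, and that of 8 endothelial markers was 7.73 to 9.59 and 8.48 to 12. Most of each sum came from 1 probe, Itgam for the macrophage list (mean log2 level 6.54 in young and 6.61 in geriatric samples) and Tek for the endothelial list (2.95 and 3.12). Itgam is the gene of CD11b, an antigen gated out. The other tested macrophage markers had young means from -5.57 (Emr1) to 2.11 (Csf1r), so that sum is mostly the level of the Itgam probe. The sum over 10 fibro-adipogenic markers was 44.4 to 59.9 in young and 57.1 to 65.4 in geriatric samples, with Pdgfra not above background and with Col3a1 and Gsn as the main terms. Of its 9 tested markers 7 were higher and 2 lower in geriatric cells, with a median log2 difference of 0.75 and none past the limma threshold used below. Dcn gave 1.56 (SE 0.58, limma adjusted p = 0.649), and Dpt at 0.75 (SE 0.17, limma adjusted p = 0.359) and Mfap5 at 2.45 (SE 0.93, limma adjusted p = 0.656) were higher without overlap. These 2 were 22.2% of the 9 tested markers, against 7.18% of all features. The main terms of the sum were nearly level, Col3a1 at -0.13 and Gsn at 0.02. The others were Col1a1 at -0.01, Lum at 0.73, Smoc2 at 1.10 and Ly6a at 1.22. Of 3 tested lymphocyte markers, 1 was higher without overlap (33.3%, against 7.18% of all features). This was the B cell gene Cd79a, at 1.27 (SE 0.23, limma adjusted p = 0.275), while Cd3e gave 0.39 and Nkg7 -0.29. The part of these markers in the values below was not tested.

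A repair gene is read here through a probe of 60 bases, and the central 30 bases of the probes that the results turn on are shown first, 5′ to 3′. The genes are the 3 lowest in p among those whose groups did not overlap (Rnf8, Trp53bp1, Palb2), the one with the lowest p in base excision (Parp1), and probes of 1 gene that gave unlike values (Wrn, Xrcc2). Where a gene had a pair of tested probes, the brighter one entered the fit. Positions are those of the array files on mouse build mm9, and whether a probe lies in an exon or an untranslated region was not analysed here.
Rnf8, chr17:29778519-29778578, plus strand: ctggtttacctttttatgaaaacatgatgt
Trp53bp1 brighter probe, chr2:121022706-121022765, minus strand: ccataggaatatagtaagtgttcaataaac
Trp53bp1 dimmer probe, chr2:121024792-121024851, minus strand: ccagaatctgaaggtcctcttggtgtcaga
Palb2 brighter probe, chr7:129251027-129251086, minus strand: acaaaaggatggaaatatatttatataccg
Palb2 dimmer probe, chr7:129256813-129256872, minus strand: tgcctcctgatgagactgtactgacttttg
Parp1, chr1:182530341-182530639, plus strand, placed across a gap: acattgctcaggtgaatctcaaatacctgc
Wrn brighter probe, chr8:34346300-34346359, minus strand: tacagaaacaactaaattctatgcattttc
Wrn dimmer probe, chr8:34345859-34345918, minus strand: cttattataagacattcaaactataattaa
Xrcc2 brighter probe, chr5:25197876-25197935, minus strand: caaaaaggcttttaggtgcactaaggcaag
Xrcc2 dimmer probe, chr5:25196044-25196103, minus strand: ccccagttaactcttctcaaagactaatca

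The transcripts of 46 of the 47 repair genes were measurable in satellite cells, 41 of them on all 7 arrays, and no member differed between young and geriatric cells past the threshold. The exception in detection was Ogg1, the glycosylase that removes oxidised guanine, which reached that mark on 0 of 7 arrays. Of the 46 tested members, 30 had a lower and 16 a higher mean in geriatric cells, so that 65.2% were lower against 50.3% of all features. Their median log2 difference, geriatric minus young, was -0.15, against -0.0024 over all 27394 features tested. In bulk samples, fewer cells of a type and less RNA per cell cannot be told apart.

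The threshold was an adjusted p of 0.05 from limma with Benjamini-Hochberg adjustment over all features, and the members' adjusted p ran from 0.668 to 0.994. Over the whole array 7 of 27394 features passed, or 0.0256%. At an unadjusted limma p under 0.05 stood 2 of the 46 members (4.35%), Rnf8 and Parp1, and 7.23% of all features. The 3 young and 3 geriatric samples did not overlap for 5 members with lower geriatric values (10.9%), against 5.65% of all features. No member lay higher without overlap, against 7.18% of all features. The members' count at the unadjusted p thus lay below the background share.

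The sizes were small in most members: 44 of the 46 differed by less than 1 on the log2 scale, and their median absolute difference of 0.21 lay beside 0.23 for all features. The 95% confidence interval of the difference stayed within a 2-fold change either way for 26 members (56.5%), against 52.5% of all features. For the other 20, a 2-fold change in at least one direction was within the interval. Without young replicate 1 the members' median was -0.10, and it was negative under all 18 alternative settings listed with the processing.

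**Figure D1:**
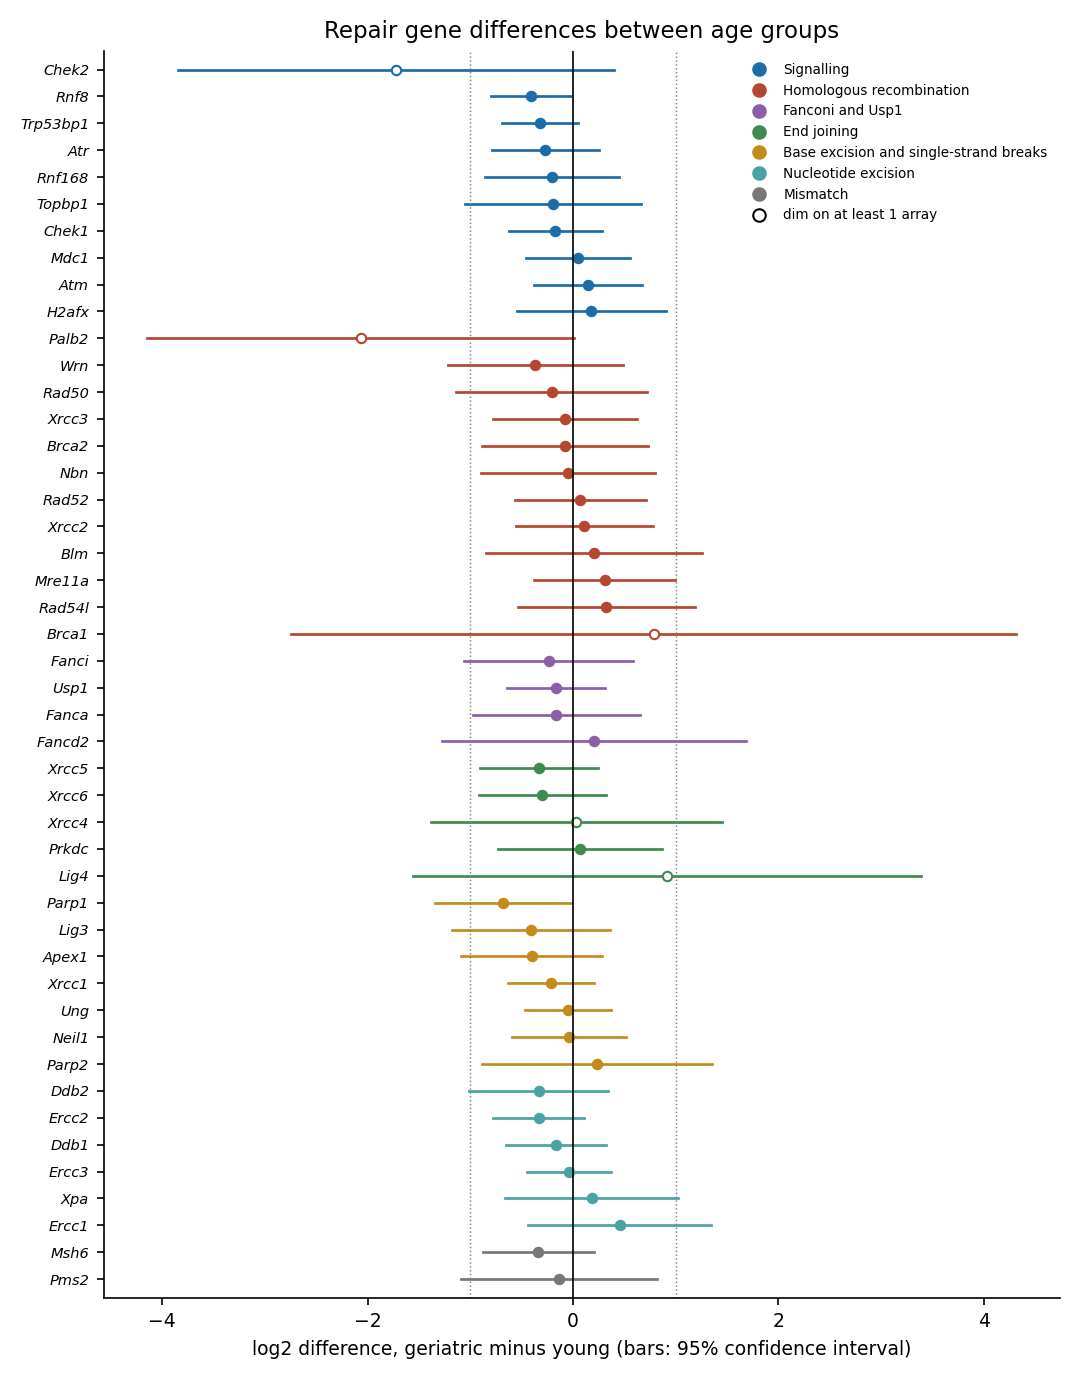
Log2 difference (geriatric minus young, horizontal axis) of each of the 46 tested repair genes, coloured by route, with bars for the 95% confidence interval of the limma fit on 3 young and 3 geriatric samples. Most points lie left of 0 and inside the dotted lines at a 2-fold change, and only the intervals of Rnf8 and Parp1 stop short of 0. Open points mark genes not well above background on at least 1 array.

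Damage signalling starts with the kinases Atm and Atr, passes through the adaptors Mdc1, Topbp1 and Trp53bp1 and the ubiquitin ligases Rnf8 and Rnf168, and reaches the effector kinases Chek1 and Chek2. Of its 10 genes, 7 were lower and 3 higher in geriatric cells, with a median of -0.20 and none past the threshold. Both ligases and the adaptor Trp53bp1, which is drawn to the chromatin mark they write, had lower geriatric means. Atm, H2afx and Mdc1 had higher ones. The median deviation of the route from each gene's own mean was 0.29, -0.0047 and 0.07 in young replicates 1 to 3, and -0.13, 0.06 and -0.15 in the averaged geriatric sample and geriatric replicates 3 and 4. The route's median was -0.10 without young replicate 1 and -0.35 without geriatric replicate 3.

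Rnf8, the ligase that starts the ubiquitin mark at breaks, stood at 1.73, 1.76 and 1.498 in the young samples and at 1.22, 1.22 and 1.33 in the averaged geriatric sample and replicates 3 and 4. All 3 geriatric values lay below the lowest young one, by 0.17. The group means were 1.66 ± 0.14 (SD, n = 3) and 1.25 ± 0.06 (SD, n = 3). The log2 difference was -0.41 (SE 0.16), the smallest p among the members, with an unadjusted limma p of 0.043 and an adjusted p of 0.668.

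Trp53bp1, the adaptor that shields broken ends from resection, stood at 1.16, 1.04 and 0.95 in young and at 0.75, 0.71 and 0.73 in geriatric samples. The groups were apart by 0.20, and the log2 difference was -0.32 (SE 0.15, limma adjusted p = 0.733). Its dimmer probe, some distance away in the same gene, stood at 0.70, 0.59 and 0.59 in young and at -0.03, 0.06 and -0.12 in geriatric samples. This probe kept the groups apart by 0.53, with a log2 difference of -0.66 (SE 0.16). In a fit of every tested probe by itself its unadjusted limma p was 0.0070 and its adjusted p 0.427, the smallest of the 56 member probes, and 6 of 41256 probes (0.0145%) passed there. Both probes of this gene thus lay lower in all 3 geriatric samples, and neither passed the threshold.

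Chek2, the effector kinase below Atm, was a dim probe (chr5:111294547-111294606, plus strand, mm9) at -3.62, -2.29 and -3.91 in young samples. It stood at -3.20 and -5.82 in geriatric replicates 3 and 4. The arrays of the averaged sample gave -8.26 and -3.70, the largest gap of any member between these arrays, at 4.56. Only 2 of 4 geriatric arrays were well above background against 3 of 3 young ones, and the log2 difference of -1.72 (SE 0.86, limma adjusted p = 0.751) ranged from -4.99 to -0.67 over 17 alternatives. Its interval ran from -3.85 to 0.40.

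Chek1, the effector kinase below Atr, lay within a narrow range, at -2.38, -2.80 and -2.81 in young and at -2.82, -2.84 and -2.84 in geriatric samples. The groups were apart by 0.012, which is less than the gap of 0.05 between the arrays of the averaged sample, and 1 of these arrays lay above young replicates 2 and 3. The log2 difference was -0.17 (SE 0.18, limma adjusted p = 0.900). Of the kinases upstream, Atr gave -0.27 (SE 0.21) and Atm 0.15 (SE 0.21), with overlapping samples in both.

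The remaining signalling genes overlapped between the groups. Rnf168, which extends the mark begun by Rnf8, gave -0.21 (SE 0.26), and Topbp1, an activator of Atr, gave -0.19 (SE 0.35). H2afx, the histone variant phosphorylated around breaks, gave 0.18 (SE 0.29), and Mdc1, which binds that phosphorylated histone, gave 0.05 (SE 0.21).

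**Figure D2:**
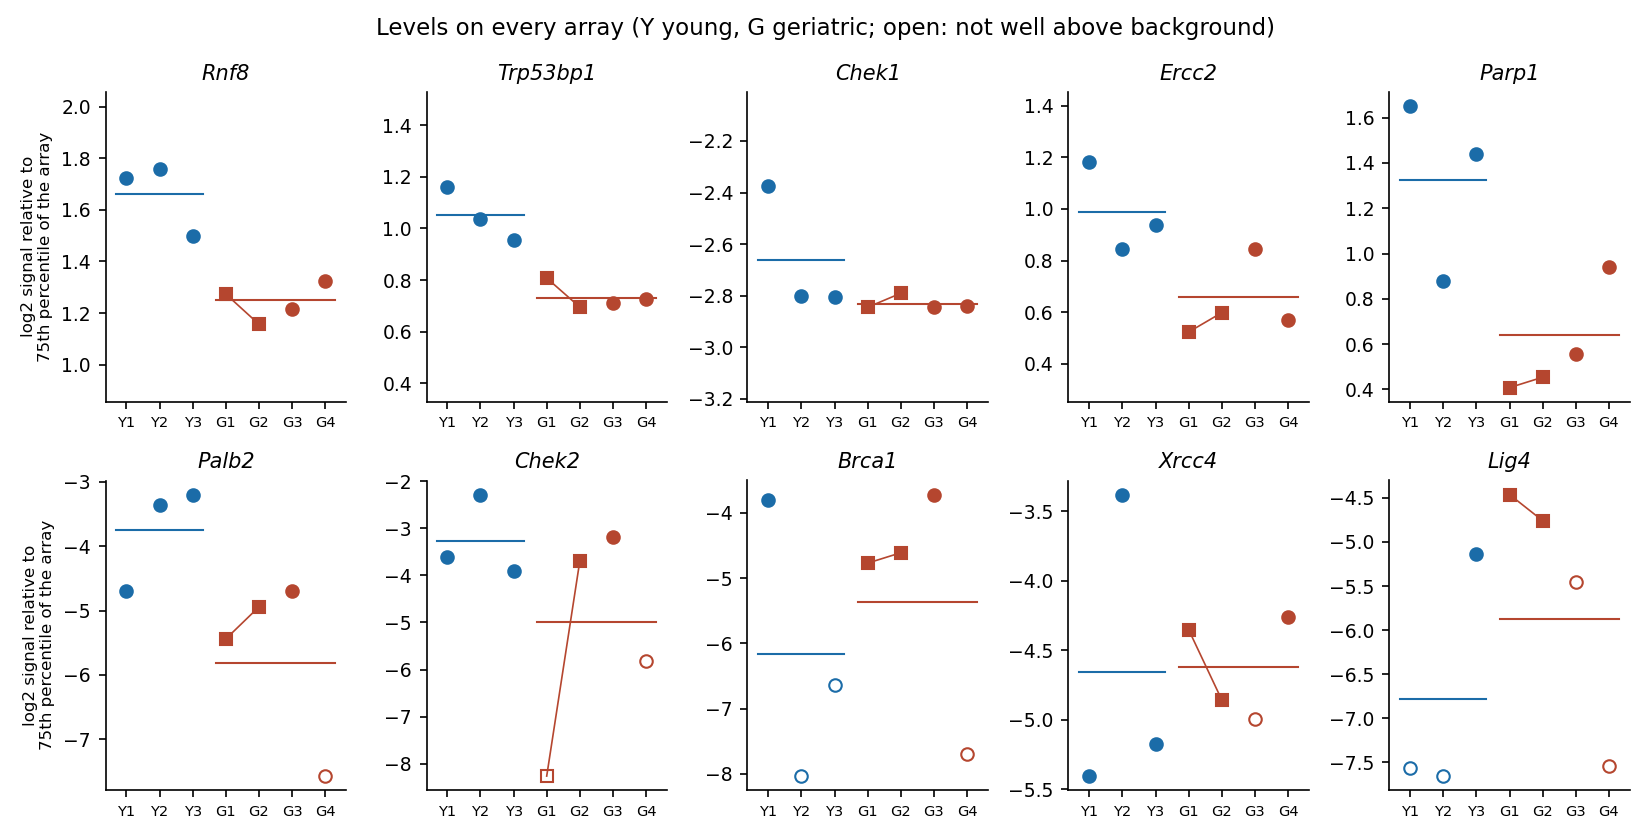
Level (log2 signal minus the array's 75th percentile, vertical axis) of 10 repair genes on each of the 7 arrays, with young arrays in blue and geriatric arrays in red. Squares joined by a line are the arrays averaged as 1 sample, horizontal lines are group means and open symbols are not well above background. The groups stand apart in Rnf8 and Trp53bp1 and meet within the spread in Chek1 and Ercc2, and the arrays of 1 group spread over several log2 units in Chek2, Brca1 and Lig4.

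Homologous recombination begins with the nuclease complex of Mre11a, Rad50 and Nbn, continues with the loaders Brca1, Palb2 and Brca2 and the strand exchange factors Rad52, Rad54l, Xrcc2 and Xrcc3, and ends with the helicases Blm and Wrn. Its 12 genes were split evenly, 6 lower and 6 higher, with a median of 0.01, and none passed. Palb2 was the member of this route whose groups did not overlap. The route's median deviation was 0.10, -0.08 and 0.04 in young and 0.04, -0.02 and 0.05 in geriatric samples.

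Palb2, which bridges Brca1 and Brca2, stood at -4.690, -3.36 and -3.20 in young samples and at -5.19, -4.691 and -7.57 in geriatric samples. The highest geriatric and the lowest young sample were apart by 0.0013, and geriatric replicate 4, the lowest value, was not well above background. The log2 difference was -2.07 (SE 0.84), with an unadjusted limma p of 0.051 and an adjusted p of 0.687. Its dimmer probe gave -4.99, -3.35 and -3.54 in young and -6.78, -7.14 and -4.77 in geriatric samples. That probe was well above background on 3 of 3 young and 1 of 4 geriatric arrays, its groups overlapped, and its log2 difference was -2.27 (SE 0.76, limma adjusted p = 0.597 in the fit of single probes). With the background modelled by normexp in place of the processed signal the difference of Palb2 was -0.83, and without geriatric replicate 4 it was -1.19.

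Brca1, which promotes resection and loading, was the least precise member. Its probe (chr11:101359283-101363319, minus strand, mm9, placed across a gap) stood at -3.80, -8.03 and -6.64 in young and at -4.69, -3.72 and -7.70 in geriatric samples. Only 1 of 3 young and 3 of 4 geriatric arrays were well above background. The log2 difference of 0.79 (SE 1.44, limma adjusted p = 0.941) was -0.15 without young replicate 2 and -0.04 without geriatric replicate 3.

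Brca2, the loader of the recombinase, gave -0.08 (SE 0.33). In the nuclease complex Mre11a gave 0.31 (SE 0.28), Rad50 gave -0.21 (SE 0.38) and Nbn gave -0.05 (SE 0.34). The annealing factor Rad52 gave 0.07 (SE 0.26), the translocase Rad54l gave 0.33 (SE 0.35), and the recombinase paralogues Xrcc2 and Xrcc3 gave 0.11 (SE 0.27) and -0.08 (SE 0.28). Of the helicases, Blm gave 0.21 (SE 0.43), with 0.97 in geriatric replicate 3 against -0.70 in the averaged geriatric sample, and Wrn gave -0.37 (SE 0.35). Each of these genes overlapped between the groups.

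Probes disagreed in direction for Wrn. Its brighter probe stood at -2.30, -1.38 and -2.25 in young and at -1.96, -2.78 and -2.29 in geriatric samples. Its dimmer probe, a short way off in the same gene, stood at -4.44, -4.60 and -4.40 in young and at -3.44, -3.34 and -4.37 in geriatric samples. The dimmer probe thus lay higher in all 3 geriatric samples, with a log2 difference of 0.76 (SE 0.32, limma adjusted p = 0.681 in the fit of single probes), against -0.37 for the brighter one. Xrcc2 gave 0.11 by its brighter and 1.83 by its dimmer probe. The latter stood at -6.18 in young replicate 1, where it was not well above background, and at -2.95 and -3.82 in the other young samples. The value for the gene was 1.09 with normexp, 1.00 with the authors' deposited values and 0.97 with the mean of its probes. No setting brought it past the threshold. With normexp and the deposited values the brighter probe was chosen anew, and which probe gave the value was not examined. Of the 10 genes with a second tested probe, 8 had the same sign by both, Wrn and Fanca being the exceptions.

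**Figure D3:**
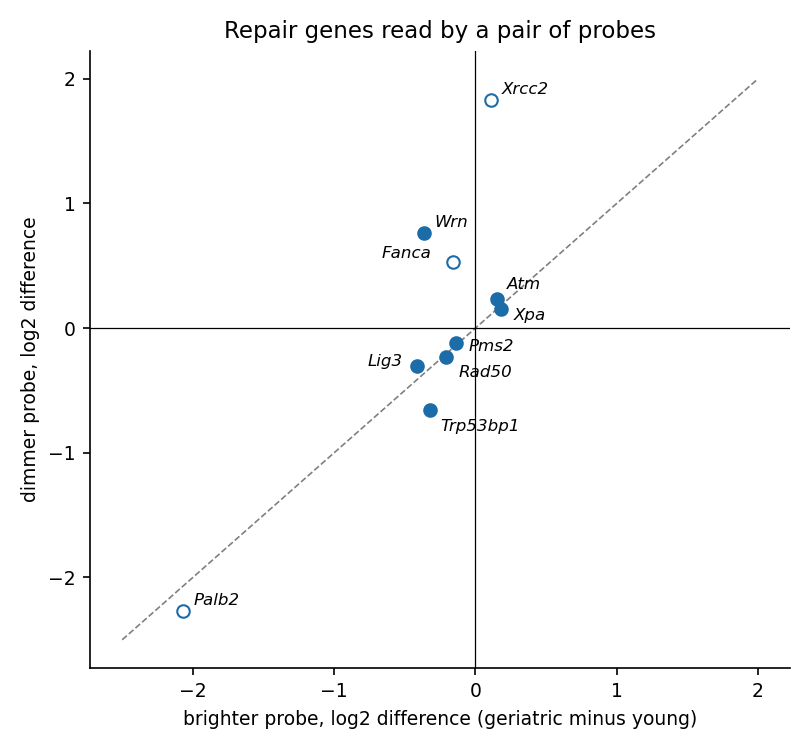
Log2 difference (geriatric minus young) by the brighter probe (horizontal axis) and the dimmer probe (vertical axis) of the 10 repair genes with a pair of tested probes, with a dashed line of equal values. Open circles are genes whose dimmer probe was not well above background on all 7 arrays. Palb2 and Trp53bp1 lie low by both probes, and Wrn, Fanca and Xrcc2 lie far above the line.

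The Fanconi genes serve interstrand crosslinks: Fanca is part of the core ligase, Fancd2 and Fanci form the clamp that the core marks with ubiquitin, and Usp1 removes that ubiquitin. Of these 4 genes 3 were lower and 1 higher, with a median of -0.16, and none passed. Usp1 had the smallest p in the route (chr4:98602146-98602205, plus strand, mm9) and stood at -0.25, -0.18 and -0.33 in young and at -0.40, -0.15 and -0.70 in geriatric samples. Its groups overlapped, since geriatric replicate 3 was the highest of all 6, and the log2 difference was -0.16 (SE 0.19, limma adjusted p = 0.910). Fanci gave -0.24 (SE 0.33), Fanca -0.16 (SE 0.33) and Fancd2 0.21 (SE 0.60), the last with values from -3.72 in young replicate 2 to -1.85 in the averaged geriatric sample. The route's median was negative in 15 of 18 alternatives. It was -0.02 without geriatric replicate 4, 0.01 with each gene's probes averaged, and 0.09 with slide row as a block and within slide row 1.

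End joining rests on the Ku subunits Xrcc5 and Xrcc6, which hold the broken ends, on the kinase Prkdc, and on the ligase Lig4 with its scaffold Xrcc4. Both Ku subunits had lower geriatric means and the other 3 genes higher ones, with a route median of 0.03 and none past the threshold. Xrcc5 (chr1:72430014-72430320, plus strand, mm9, placed across a gap) stood at 1.47, 0.95 and 1.59 in young and at 0.98, 0.83 and 1.201 in geriatric samples. Its log2 difference was -0.33 (SE 0.23, limma adjusted p = 0.831). Xrcc6 gave -0.30 (SE 0.25), at 0.61, -0.06 and 0.65 in young and 0.17, -0.09 and 0.23 in geriatric samples. In both Ku genes young replicates 1 and 3 lay above every geriatric sample and young replicate 2 among them.

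Prkdc gave 0.07 (SE 0.33). Lig4 and Xrcc4 were dim. Lig4 (chr8:9970290-9970349, minus strand, mm9) stood at -7.57, -7.66 and -5.13 in young and at -4.61, -5.45 and -7.54 in geriatric samples, with 1 of 3 young and 2 of 4 geriatric arrays well above background. Its log2 difference was 0.92 (SE 1.00, limma adjusted p = 0.904). Xrcc4 (chr13:89988731-89988790, minus strand, mm9) stood at -5.41, -3.38 and -5.17 in young and at -4.60, -4.995 and -4.26 in geriatric samples, with 3 of 3 and 3 of 4 arrays above background. Its log2 difference was 0.03 (SE 0.58, limma adjusted p = 0.994). The intervals of both genes covered a 2-fold change in either direction.

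Base excision removes a damaged base with a glycosylase such as Ung, Neil1 or Ogg1, cuts the strand with Apex1, and seals it with Xrcc1 and Lig3, while Parp1 and Parp2 sense the open strand. Of its 7 tested genes 6 were lower and 1 higher in geriatric cells, with a median of -0.21 and none past the threshold. The lower means included the scaffold Xrcc1, its ligase Lig3 and the sensor Parp1. The route's median deviation was 0.22, -0.10 and -0.02 in young and -0.32, -0.01 and -0.03 in geriatric samples, so that young replicate 1 and the averaged geriatric sample were the extremes. Without the averaged geriatric sample the median was -0.13.

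Parp1, which marks strand breaks with chains of ADP-ribose, stood at 1.65, 0.88 and 1.44 in young and at 0.43, 0.56 and 0.94 in geriatric samples. Young replicate 2 lay below geriatric replicate 4, so the groups overlapped. The means were 1.32 ± 0.40 (SD, n = 3) and 0.64 ± 0.26 (SD, n = 3). The log2 difference was -0.68 (SE 0.27), with an unadjusted limma p of 0.045 and an adjusted p of 0.672.

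Its relative Parp2 gave 0.24 (SE 0.45), with 0.14 in geriatric replicate 3 and values from -1.46 to -0.89 in the other 5 samples. Lig3 gave -0.41 (SE 0.31), Apex1 gave -0.40 (SE 0.28) and Xrcc1 gave -0.21 (SE 0.17). Of the glycosylases, Ung, which removes uracil, gave -0.05 (SE 0.17), and Neil1, which acts on oxidised pyrimidines, gave -0.04 (SE 0.23). The Ung probe was the brightest of the members, at 7.03 to 7.37 over the 6 samples, against a young mean of 3.07 for Apex1. Its central 30 bases end in a run of gt repeats, and whether it read Ung alone was not tested. The value for Ung is therefore that of this probe, and it is counted in the route's median and among its lower genes. Ogg1 (chr6:113284105-113284164, plus strand, mm9) had no array above background and therefore no fold.

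Nucleotide excision cuts out bulky adducts: Ddb1 and Ddb2 bind ultraviolet lesions, Xpa checks the damage, the helicases Ercc2 and Ercc3 open the helix and Ercc1 belongs to the nuclease that cuts it. Of the 6 genes 4 were lower and 2 higher, with a median of -0.10 and none past the threshold. Ercc2 (chr7:19980982-19981041, plus strand, mm9) stood at 1.18, 0.847 and 0.94 in young and at 0.56, 0.844 and 0.57 in geriatric samples. The groups were apart by 0.0032, less than the gap of 0.07 between the arrays of the averaged sample, and the log2 difference was -0.33 (SE 0.18, limma adjusted p = 0.769).

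Ercc1, by the probe that entered the fit, gave 0.46 (SE 0.36). Its averaged geriatric sample stood at 2.74, geriatric replicates 3 and 4 at 1.44 and 1.73, and the young samples at 1.65, 1.37 and 1.52. The averaged sample thus stood above the other 5, and without it the difference was 0.07. Ddb2 gave -0.33 (SE 0.27), Ddb1 -0.17 (SE 0.20), Xpa 0.18 (SE 0.34) and the second helicase, Ercc3, -0.04 (SE 0.17).

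Mismatch repair was represented by Msh6, which recognises single mispairs, and Pms2, the endonuclease partner. Both had lower geriatric means and neither passed. Msh6 (chr17:88390143-88390202, plus strand, mm9) stood at 0.01, 0.34 and -0.10 in young and at -0.32, 0.04 and -0.49 in geriatric samples, with overlap through geriatric replicate 3. Its log2 difference was -0.34 (SE 0.22, limma adjusted p = 0.810). Pms2 gave -0.13 (SE 0.39), with its highest value of -0.76 in young replicate 3.

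**Figure D4:**
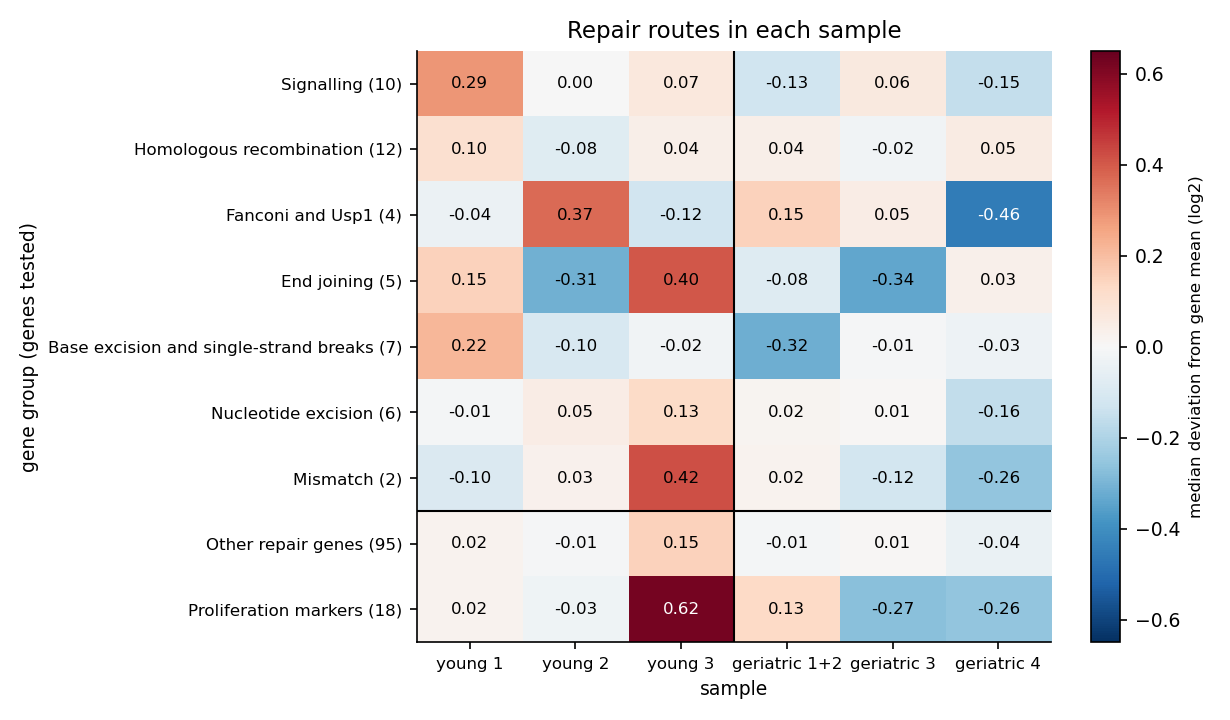
Median deviation of each route's genes from their own mean over the 6 samples (log2, colour scale and printed values), for the 7 repair routes, the other repair genes and the proliferation markers, with the number of tested genes in brackets. Rows change colour between samples of 1 age as well as between ages, and young replicate 3 stands out at 0.62 in the proliferation markers.

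Several members are transcribed mainly in cycling cells, so the proliferation markers were set beside them. Of 20 such markers 18 were tested, 12 lower and 6 higher in geriatric cells, with a median of -0.28. Their median deviation was 0.02, -0.03 and 0.62 in young and 0.13, -0.27 and -0.26 in geriatric samples. Their summed level was 13.6 to 19.8 in young and 15.5 to 18.4 in geriatric samples. Mcm4 and Mcm7 were the main terms of that sum, and Aurkb was at background throughout. The groups did not overlap for 3 lower markers (16.7%, against 5.65% of all features) and for no higher one (against 7.18%). These were Cdc6 at -2.72 (SE 0.66, limma adjusted p = 0.415), Mki67 at -1.05 (SE 0.43, limma adjusted p = 0.690) and Mcm2 at -0.73 (SE 0.27, limma adjusted p = 0.645). Cdc6 was detected on 3 of 7 arrays. The part of proliferation in the members' values was not tested.

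Promoters were searched for the E2F-type motifs TTTGGCGC, TTTCGCGC, TTTCCCGC and TTTGCCGC on both strands, since E2F factors are known for driving repair genes in cycling cells. Windows ran from 250 bases before to 50 after the start in RefSeq, build GRCm38.p6, and 37 of the 47 members had an entry. A motif was found in 6 members (16.2%), against 2.60% of 27025 genes in the table and 3.99% of 11187 tested features with an entry. The 60 bases around the motif, 5′ to 3′ on the gene's strand, are given for the 5 members whose motif lies before the start, with the motif in capitals.
Brca2, chr5:150522427-150522486, plus strand: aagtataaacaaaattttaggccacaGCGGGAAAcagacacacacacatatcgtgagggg
Chek2, chr5:110839805-110839864, plus strand: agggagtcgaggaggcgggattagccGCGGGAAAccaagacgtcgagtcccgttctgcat
Topbp1, chr9:103305172-103305231, plus strand: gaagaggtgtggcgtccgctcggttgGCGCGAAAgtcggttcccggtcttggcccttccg
Xrcc6, chr15:82016297-82016356, plus strand: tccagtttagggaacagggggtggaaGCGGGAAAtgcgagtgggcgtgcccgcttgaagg
Mdc1, chr17:35841456-35841515, plus strand: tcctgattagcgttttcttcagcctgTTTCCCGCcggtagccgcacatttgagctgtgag
In Brca2, Chek2, Topbp1 and Xrcc6 the capitals are a motif read on the opposite strand, and the last member with a motif was Msh6. Of these 6 members 5 were lower in geriatric cells, with a median of -0.24. Of 30 tested members without a motif 19 were lower, with a median of -0.15, and 50.3% of all features were lower. Chek2, 1 of the 6, was detected on only 2 of 4 geriatric arrays. The share lower among the 446 tested features with a motif was not worked out. The part of E2F in these values was not tested. A match of letters is a description of the sequence and not a bound site.

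Another 101 gene names of the same routes, of which 98 were on the array and 95 tested, gave no call either. Of these 56 were lower and 39 higher in geriatric cells, with a median of -0.13, and 7 (7.37%) had an unadjusted limma p under 0.05, against 7.23% of all features. The groups did not overlap for 9 lower genes (9.47%, against 5.65% of all features) and 2 higher ones (2.11%, against 7.18%). The smallest p belonged to Mad2l2, a subunit of the polymerase that copies past lesions and of the complex that shields ends with Trp53bp1. It stood at -1.39, -0.81 and -1.03 in young and, without overlap, at 0.83, 0.12 and -0.18 in geriatric samples, a log2 difference of 1.33 (SE 0.32, limma adjusted p = 0.396). Ube2t, the conjugating enzyme that serves the Fanconi core, gave -2.38 (SE 0.57, limma adjusted p = 0.401), from a probe detected on 4 of 7 arrays. Gtf2h2, which sits with Ercc2 and Ercc3 in the helix-opening complex, gave -0.80 (SE 0.22, limma adjusted p = 0.491), and Cdk7, the kinase of that complex, gave -0.58 (SE 0.20, limma adjusted p = 0.609). Rad17, the loader of a checkpoint clamp, gave -1.06 (SE 0.35, limma adjusted p = 0.583), and Ercc8, which serves repair of transcribed strands, gave -0.54 (SE 0.20, limma adjusted p = 0.654).

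The slide held 2 rows of arrays, with all young arrays and geriatric replicate 1 in row 1 and the other geriatric arrays in row 2. Row 1 was therefore the only row with both ages, through geriatric replicate 1. Within row 1, and with the lone geriatric array assumed to vary like the young ones, that array against the 3 young ones gave a median of -0.18 over the members and 29 lower of 46, with none past the threshold. In that comparison 11 members changed sign. The smallest limma adjusted p was 0.249, for Chek2, where the lone geriatric array stood at -8.26 and was not well above background, against -3.70 on the other array of the same sample.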

How the data were processed

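RNA of sorted satellite cells was hybridised to 1-colour Agilent arrays, 3 young and 4 geriatric, all on 1 slide and 1 scan day. Spot intensity values were quantified by the authors with Agilent Feature Extraction 10.7.3.1, which subtracted a spatially detrended background and set surrogate values near background, per the file headers. A table of log2 values was also deposited by the authors, with its normalization not given in the sources used here; its column medians were 8.22 to 8.23, and it ran in the direction of the scanner values (r of 0.968 to 0.976 with log2 signal), with no centring of probes. Its slope on log2 signal was 0.667 to 0.716, so its differences are on a compressed scale.

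For each probe, outlier spots were left out, spots were averaged, and the 75th percentile of the array was subtracted on the log2 scale. Probes well above background on at least 3 of 7 arrays were tested (41256), and a gene was given by its brightest tested probe (27394 features). In alternatives that changed the signal or the filter, that probe was chosen anew. Groups were compared with limma 3.58.1 (lmFit and eBayes, R 4.3.3), 2-sided, with Benjamini-Hochberg adjustment over all features and a threshold of 0.05. The scripts were tested on simulated data. Depth does not apply to arrays; the number of arrays and the signal over background limit precision.

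Members, routes, other repair genes and marker lists were chosen with earlier results of these data known. Values in every sample are given for members with an unadjusted p under 0.05, without overlap between groups, dim on at least 1 array, or lowest in p in their route; others are given by difference, and of the other repair genes the 6 with the smallest p. Xrcc6, Xrcc2, Wrn and Ercc1 were added after their values were seen. For the marker lists only summed level and detection were planned, so the values of single markers go beyond the plan. Rad9a, Rad51b, Rad51d and Adgre1 had no probe under these names. Of the lymphocyte markers only those tested are given, and 1 item is not reported here. All 47 members matched a RefSeq entry by the array's accession, and 1 has a newer name (H2afx is H2ax).

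Alternatives were normexp background correction (offset 50), the authors' deposited values, quantile normalization, no filter and a filter on all 7 arrays, the mean of a gene's probes, geriatric replicates 1 and 2 as separate samples, slide row as a block and row 1 alone, a replicate block, each array left out in turn and, added after the data were seen, each probe by itself. The slide row was read from the array position in the file headers; for geriatric replicate 2 the position in the header differs from that in its description.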

Additional observations from a re-analysis of the deposited data

How the results depend on the processing

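No member passed the threshold under any of the 18 alternatives or in the fit of single probes, where the smallest adjusted p of a member by limma ran from 0.249 to 0.833. Members with a lower geriatric mean numbered 28 to 33, and the members' median stayed between -0.18 and -0.077, the latter with a gene's probes averaged. Of 823 single values of members under an alternative, 26 moved by at least 1 replicate SD and none passed.

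Features called over the whole array, 7 by limma in the comparison reported, numbered 4 with normexp, 4 with the authors' deposited values, 2 with the filter on all 7 arrays, 64 with geriatric replicates 1 and 2 as separate samples, 0 with slide row as a block (1633 at an unadjusted p under 0.05), 3 within row 1 and 0 with the replicate block (2077 at an unadjusted p under 0.05). With 1 array or sample left out the count ran from 0 to 8, at 0 without young replicate 1 (1622 at an unadjusted p under 0.05), young replicate 2 (2146) or geriatric replicate 4 (2116). The block used the sample numbers of the descriptions, in which the averaged sample is geriatric 1 and geriatric replicates 3 and 4 are geriatric 2 and 3. By these numbers, the deviations of same-numbered samples from their group means correlated at -0.04, 0.03 and 0.04. Each deviation is from a mean of only 3 samples, so these values cannot settle whether samples were prepared in pairs. By the replicate numbers of the titles, young replicate 2 and the averaged sample gave 0.07 and young and geriatric replicates 3 gave -0.0044. Under the replicate block the members' median was -0.15 and no member was called.

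The median log2 difference of the other repair genes was -0.061 with the filter on all 7 arrays, -0.055 with separate samples, and 0.0020 with slide row as a block and within row 1; leaving out 1 sample gave -0.14 to -0.027. End joining was -0.30 with the filter on all 7 arrays, homologous recombination 0.13 with the mean of probes, and base excision -0.38 with slide row as a block and within row 1. Leaving out 1 sample gave -0.35 to -0.10 for signalling, -0.054 to 0.11 for homologous recombination, -0.26 to -0.02 for the Fanconi genes, -0.23 to 0.10 for end joining, -0.29 to -0.13 for base excision, -0.15 to -0.04 for nucleotide excision and -0.34 to -0.08 for mismatch repair. The cause was not tested. Among members whose difference in the comparison reported was over 0.3 either way, the sign turned in Wrn with the mean of probes. It also turned in Brca1 and Rad54l without young replicate 2, and in Brca1 without geriatric replicate 3. Members with smaller differences changed sign as well. Over the alternatives Blm ran from -0.61 to 0.60, Xpa from -0.39 to 0.48 and Fanci from -0.48 to 0.27.

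Signal over background limited Ogg1, which no array detected, and Chek2, Brca1, Palb2, Xrcc4 and Lig4, which some arrays did not. With 3 samples a group the members' 95% confidence interval had a median half-width of 0.69 on the log2 scale.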
